A study of Mus musculus with 11 samples.

Results

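Cell contacts need connexins, cadherins and their partners, and 9 genes of this kind (Gja1, Gja4, Gjc1, Cdh1, Cdh3, Tjp1, Dsc2, Dsc3 and Dsg2) were followed from the mature mouse oocyte to the 2-cell embryo. They were chosen by symbol, through the Entrez number of each row, and all 9 were found among the 24421 genes of the count table. RNA was sequenced from pools of 50 oocytes or embryos, each pool taken from 2 to 3 females over 8 weeks old. Every female carried floxed Daxx alleles (Daxxtm2Led F/F) in a C57BL/6J and 129/Sv mixture. The protein made from Daxx places histone H3.3 on chromatin. Control oocytes came from Daxx f/f females without Cre (3 libraries) and knockout oocytes from Daxx f/f; Zp3-cre females (3 libraries), in which Cre is driven by the Zp3 promoter of growing oocytes. Mature oocytes (MII, arrested in meiosis II) were collected 20 hours after hCG, following 5 IU of PMSG and 5 IU of hCG. Such oocytes were fertilised in vitro with sperm of 8-week-old JF1 males, and 2-cell embryos were collected 33 hours later. Control embryos are labelled Daxx f/f; m+z+ (3 libraries) and maternal knockout embryos Daxx f/f; Zp3-cre; m-z+ (2 libraries), the latter lacking maternal Daxx but having a paternal allele. Only the knockout females carried the transgene, so that Daxx loss and the transgene cannot be told apart, and all embryos were hybrids with JF1.

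Connexins assemble into channels that join the cytoplasm of neighbouring cells at gap junctions. In the ovarian follicle the channels between oocyte and granulosa cells are built largely of connexin 37, the product of Gja4, while connexin 43, the product of Gja1, joins granulosa and cumulus cells to each other and is a main connexin of the later preimplantation embryo. Cadherins hold cells together through calcium-dependent binding of their outer domains. E-cadherin (Cdh1) and P-cadherin (Cdh3) are classical cadherins of adherens junctions, and E-cadherin of maternal origin is present in the early embryo and is needed for compaction of the morula. Desmocollins (Dsc2, Dsc3) and desmogleins (Dsg2) are the cadherins of desmosomes, which anchor keratin filaments in epithelia. Tjp1 encodes ZO-1, a scaffold protein below tight junctions that also binds connexin 43.

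The libraries held 17978192 to 39798586 counted reads. Levels are given in CPM, the reads of a gene per 1000000 counted reads of the library, so that 3 reads equal 0.0754 to 0.167 CPM. Daxx itself ranged over 86.2 to 97.2 CPM in the oocytes of controls and 7.83 to 8.40 in those of knockouts. In embryos it ranged over 35.2 to 46.7 and 22.8 to 25.5, each knockout library below all controls of its stage. So lay those of 5.66% of genes tested in oocytes and 6.38% in embryos. The log2 change of Daxx passed in oocytes (-3.52, SE 0.07, edgeR adjusted p = 1.2e-11) but not in embryos (-0.75, SE 0.19, adjusted p = 0.54). All 12 oocyte markers had a mean of at least 1 CPM in every group. The 10 markers of the 2-cell embryo summed to at most 9.27 CPM in any oocyte library and at least 796 in any embryo library. Of 18 granulosa and cumulus markers, 6 had means of at least 1 CPM in control and in knockout oocytes: Nr5a2 (64.7 and 64.6), Cyp19a1 (19.0 and 18.2), Kitl (9.08 and 9.40), Cyp11a1 (6.71 and 9.23), Ptgs2 (2.28 and 5.45) and Has2 (1.59 and 1.98). The other 12 stayed under 1 CPM, Foxl2, Inha and Amh at no more than 0.0876. Over the whole list the sum was 103 to 108 CPM in oocytes of controls and 106 to 116 in oocytes of knockouts, and 304 to 385 in embryos, where Nr5a2 and Amhr2 gave most. Lars2, which collects reads resembling ribosomal RNA, took 0.142% to 0.201% of reads in oocytes and 0.482% to 1.85% in embryos.

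Gja4 fell and Gja1 rose between the stages. Gja4 lies on chromosome 4 (127311420 to 127314039, minus strand, GRCm38) and Gja1 on chromosome 10 (56377300 to 56390419, plus strand). The 250 bases before the start of each gene are shown because these are the members with the steepest fall and rise. They come from RefSeq (GRCm38.p6), are written 5′ to 3′ on the strand of the gene, and have matches to the motifs searched in capitals.
Gja1 (chr10:56377050-56377299, plus strand): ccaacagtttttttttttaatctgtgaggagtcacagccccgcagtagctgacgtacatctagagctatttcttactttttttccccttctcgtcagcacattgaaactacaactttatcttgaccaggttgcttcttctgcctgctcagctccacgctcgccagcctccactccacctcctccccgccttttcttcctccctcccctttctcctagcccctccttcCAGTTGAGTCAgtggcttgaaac
Gja4 (chr4:127314040-127314289, minus strand): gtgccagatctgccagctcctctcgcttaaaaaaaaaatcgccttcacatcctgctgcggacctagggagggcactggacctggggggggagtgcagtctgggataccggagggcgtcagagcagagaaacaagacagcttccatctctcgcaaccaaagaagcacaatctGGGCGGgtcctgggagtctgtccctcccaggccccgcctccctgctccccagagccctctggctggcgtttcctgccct

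On both strands, 7 motifs were searched: the TATA box as TATAAA, the CCAAT box by its name, the Sp1 box as GGGCGG, the AP-1 site as TGACTCA, the cyclic AMP response element as TGACGTCA, the E-box as CANNTG and a NOBOX site as TAATTG. The Gja1 window held 1 AP-1 match starting at base -19 and 1 E-box match starting at base -23, which overlap, counted back from the gene start. The Gja4 window held 1 Sp1 match at base -79. Among 32851 promoter windows of the same length, 4.46% held the AP-1 letters, 66.2% those of the E-box and 32.7% those of the Sp1 box. These are matches of letters and do not show binding. The GC content was 50.0% for Gja1 and 61.2% for Gja4, against a median of 52.4%. The bases following the RefSeq start of Gja1 were found in no GENCODE M21 transcript of the gene, whereas those of Gja4 were. Their place within the transcript was not checked, and which start was used in these cells was not measured. Promoter sequences for 3 of the 9 members were in the RefSeq table, the third being Tjp1.

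Gja4 held 368, 351 and 367 CPM in control oocyte replicates 1, 2 and 3, and 373, 405 and 358 in the knockout oocytes. Control embryos held 8.57, 14.2 and 11.03 CPM, and maternal knockout embryos 17.1 (replicate 2) and 19.0 (replicate 3). Every oocyte library thus lay far above every embryo library, and the oocyte genotypes overlapped. The mean of 362 ± 9.49 CPM in control oocytes (SD, n = 3) was 32.1-fold that of 11.3 ± 2.83 in control embryos (SD, n = 3), and the log2 change was -5.03 (SE 0.16, edgeR adjusted p = 1.2e-10). Between the knockout groups, which share no library with the controls, the fall was -4.44 (SE 0.11, adjusted p = 1.4e-09). All levels are shares of counted reads, and in pools fewer cells with a transcript and less of it per cell cannot be told apart.

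Gja1 was at or near 0 in oocytes, with 2, 0 and 0 reads in the control and 1, 0 and 2 reads in the knockout libraries. The embryos held 897, 1075 and 1659 reads in controls, or 49.9, 56.2 and 72.0 CPM, and 1889 and 1262 reads in knockouts, or 74.6 and 60.9 CPM. No oocyte library came near any embryo library. Set over summed reads, the control embryo level was 3344 times the oocyte level, with a 95% counting interval of 925.1 to 27624, because only 2 of 110797655 oocyte reads were involved. Between the knockout groups the ratio was 2593, with an interval of 886.3 to 12578. The rise passed in both genotypes (edgeR adjusted p = 1.4e-10 and 1.5e-09). In the oocyte libraries Gja1, a connexin of cumulus cells, was therefore no more than 2 reads, beside at least 11975 reads of Gja4.

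Gjc1, which encodes connexin 45, lies on chromosome 11 (102799477 to 102819686) and was scarce at both stages. Control oocytes held 2.55, 2.09 and 2.63 CPM, knockout oocytes 3.75, 2.79 and 2.57, control embryos 3.23, 3.19 and 4.99 and knockout embryos 4.94 and 4.25. Its log2 rise between control groups was 0.63 (SE 0.25, edgeR adjusted p = 0.033), and all 3 embryo libraries lay above all 3 oocyte libraries. The call was lost without control oocyte replicate 1 (adjusted p = 0.070) or 2 (0.14), or control embryo replicate 3 (0.15). Between the knockout groups the value was 0.55 (SE 0.23, adjusted p = 0.051), which did not pass. It did pass with RLE factors (0.029), the stricter filter (0.045), DESeq2 (0.041), the replicate block (0.028) and without knockout oocyte replicate 1 (0.028).

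**Figure D1:**
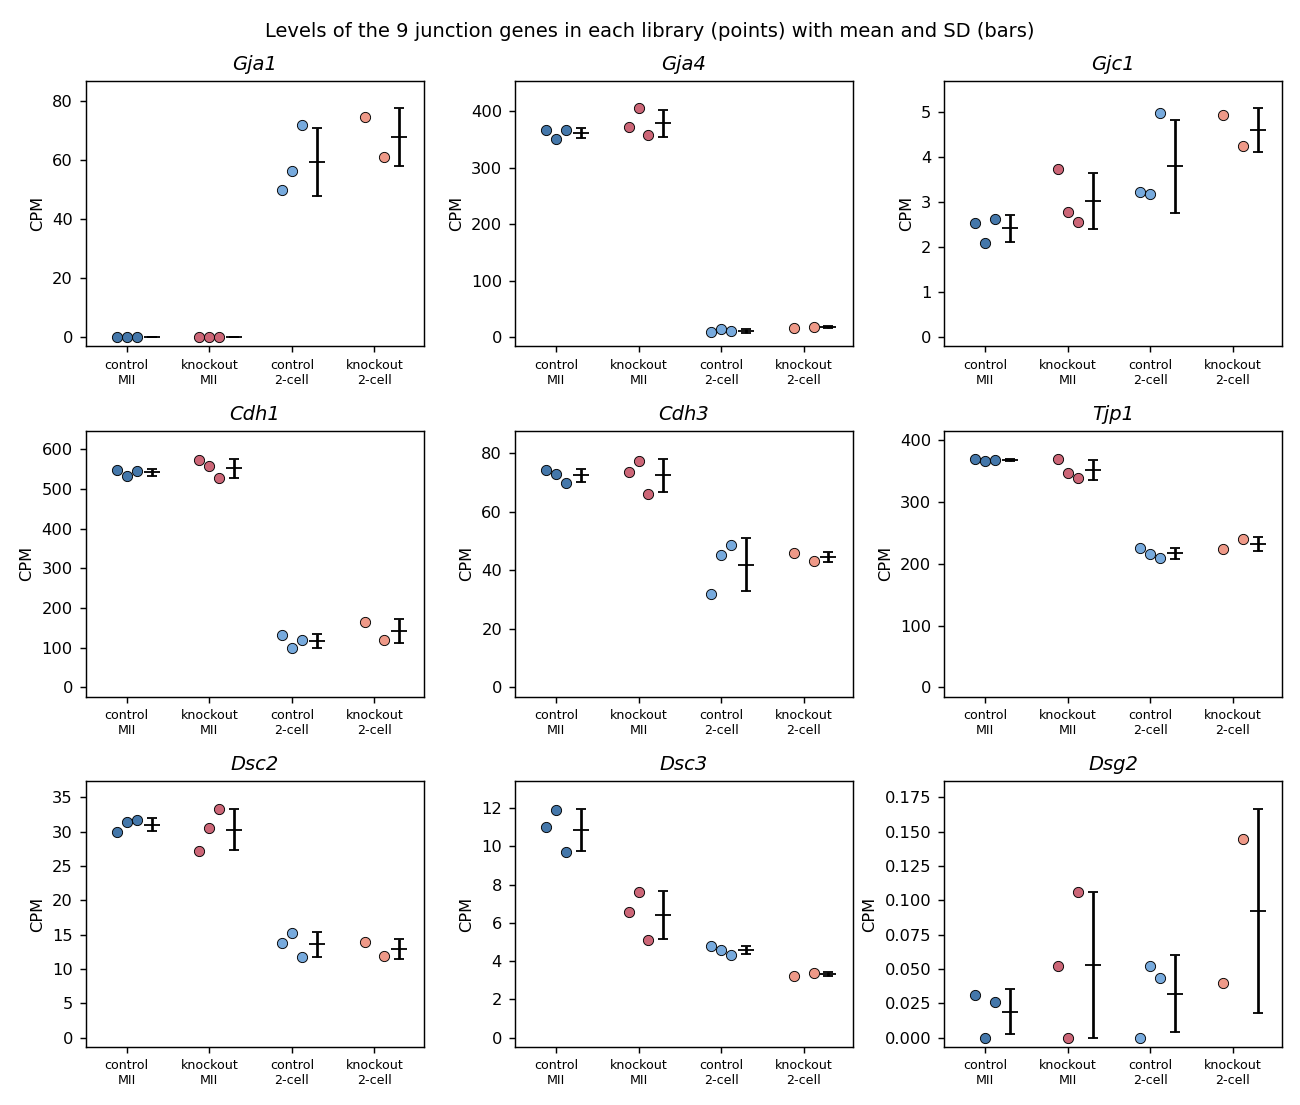
Levels of the 9 genes in CPM (vertical axis, its own scale in each panel) for the 4 groups, with 1 point per library and the mean and SD beside them. Gja4 stands at 351 to 405 CPM in the 6 oocyte libraries and at 8.57 to 19.0 in the 5 embryo libraries, Gja1 does the reverse, and Dsc3 is the panel in which the oocyte genotypes separate.

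The cadherin genes lie side by side on chromosome 8, Cdh3 from 106510852 to 106556911 and Cdh1 from 106603350 to 106670247, 46.4 kb apart on the plus strand. Cdh1 was the most abundant member in oocytes by reads, with 548, 532 and 546 CPM in controls and 574, 557 and 527 in knockouts. Embryos held 132, 98.5 and 120 CPM in controls, and 164 and 120 in knockouts. Oocytes and embryos did not overlap, while the genotypes overlapped at each stage. The control mean fell from 542 ± 8.76 to 117 ± 16.8 CPM (SD, n = 3 each), or -2.24 in log2 (SE 0.11, edgeR adjusted p = 3.4e-09), and the knockout groups differed by -2.01 (SE 0.11, adjusted p = 2.0e-07).

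Cdh3 stood at 74.2, 73.0 and 69.9 CPM in control oocytes and 73.6, 77.4 and 66.2 in knockout oocytes. Its embryo levels were 31.8, 45.4 and 48.7 CPM in controls and 45.8 and 43.3 in knockouts. The fall between control groups was -0.81 (SE 0.14, edgeR adjusted p = 0.00017), smaller than that of its neighbour Cdh1, and that between knockout groups was -0.75 (SE 0.09, adjusted p = 5.2e-05). Control embryo replicate 1 was the lowest library for Cdh3 and the highest control embryo for Cdh1.

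Tjp1, on chromosome 7 (65296165 to 65527850, minus strand), varied least among control oocytes, at 369, 366 and 368 CPM. Knockout oocytes held 370, 346 and 339 CPM, control embryos 226, 215 and 209, and knockout embryos 224 and 240. The genotypes overlapped at both stages and the stages did not. The fall was -0.79 (SE 0.08, edgeR adjusted p = 2.3e-06) between control groups and -0.65 (SE 0.08, adjusted p = 4.6e-05) between knockout groups.

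The desmosomal members lie on chromosome 18, Dsc3 from 19960930 to 20002410, Dsc2 from 20030633 to 20059554, 28.2 kb further on, and Dsg2 from 20558074 to 20604526. Dsc2 held 29.9, 31.4 and 31.7 CPM in control oocytes and 27.2, 30.5 and 33.2 in knockout oocytes. Its embryo levels were 13.8, 15.3 and 11.7 CPM (controls) and 13.9 and 11.9 CPM (knockouts). The stages separated and the genotypes did not, with a fall of -1.22 (SE 0.14, edgeR adjusted p = 6.1e-06) between control groups and -1.28 (SE 0.14, adjusted p = 1.8e-05) between knockout groups.

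For Dsc3, control oocytes held 11.02, 11.9 and 9.68 CPM, and knockout oocytes 6.55, 7.60 and 5.11. Control embryos held 4.78, 4.598 and 4.34 CPM, and maternal knockout embryos 3.24 and 3.38. The 4 groups formed a descending order with no overlap between any neighbours: control oocytes, knockout oocytes, control embryos, knockout embryos. How many of all genes form such an order was not counted. Between stages the fall was -1.27 (SE 0.17, edgeR adjusted p = 2.1e-05) in controls and -1.002 (SE 0.23, adjusted p = 0.0025) in knockouts.

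Dsg2, whose product pairs with desmocollins in simple epithelia, was at or near the floor of 3 reads throughout. It had 0 to 4 reads in each of the 11 libraries, which came to 2 over the control and 6 over the knockout oocytes, and to 2 over the control and 4 over the knockout embryos. It passed the low-count filter in none of the 5 comparisons, so no fold is given.

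Set per kb of gene width, the 3 connexins among the members were made up differently at each stage. Among Gja1, Gja4 and Gjc1, Gja4 held 99.8% ± 0.0234 of the summed CPM per kb in control oocytes and 99.7% ± 0.0582 in knockout oocytes (SD, n = 3 each). In embryos Gja1 held 68.3% ± 5.02 in controls (SD, n = 3) and 61.0% ± 4.88 in maternal knockouts (SD, n = 2), and Gja4 28.5% ± 5.56 and 35.9% ± 5.02. The shares of Gja4 in embryos overlapped between genotypes, at 24.3% to 34.8% in controls and 32.4% to 39.5% in knockouts. The summed level of the 3 connexins was 215 ± 5.69 CPM per kb in control oocytes and 23.5 ± 3.95 in control embryos. Without the widths it was 364 ± 9.80 and 74.4 ± 13.2 CPM (SD, n = 3 each). The sum was thus a smaller share of counted reads in embryos, and the amount of all connexin transcripts was not measured. Which connexin led in embryos depended on the length used for Gja1: the deposited width is 3706 bases, and the union of its GENCODE exons 10257. With GENCODE lengths, an alternative added after seeing the data, Gja4 held 50.3% and Gja1 43.9% in control embryos, and 58.8% and 36.2% in knockout embryos.

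Cdh1 held 87.2% ± 0.412 of the summed CPM per kb of Cdh1 and Cdh3 in control oocytes (SD, n = 3) and 71.6% ± 6.63 in control embryos (SD, n = 3), and 87.4% ± 0.592 and 74.1% ± 3.43 in the knockout groups (SD, n = 3 and n = 2). Each embryo library lay below each oocyte library. Among Dsc2, Dsc3 and Dsg2, Dsc3 held 25.7% ± 2.19 in control oocytes and 25.1% ± 1.99 in control embryos (SD, n = 3 each). Its share was 17.4% ± 3.66 in knockout oocytes (SD, n = 3) and 20.2% ± 2.24 in maternal knockout embryos (SD, n = 2). The knockout libraries lay below the controls at each stage, with 13.2% to 19.7% against 23.1% to 27.2% in oocytes and 18.6% to 21.8% against 22.9% to 26.8% in embryos. These shares rest on the same Dsc3 reads as its levels and are no separate result. By level, knockout libraries lay below all controls for 5.66% of genes tested in oocytes and 6.38% in embryos. Dsc2 made up nearly all of the rest of the sum of Dsc2, Dsc3 and Dsg2. Other desmosomal cadherin genes were left out of that sum. Among them Dsg1a stood at 1.32 CPM per kb in control oocytes and 0.714 in control embryos, beside 2.03 and 0.855 for Dsc3. These are therefore not shares of all desmosomal cadherins.

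**Figure D2:**
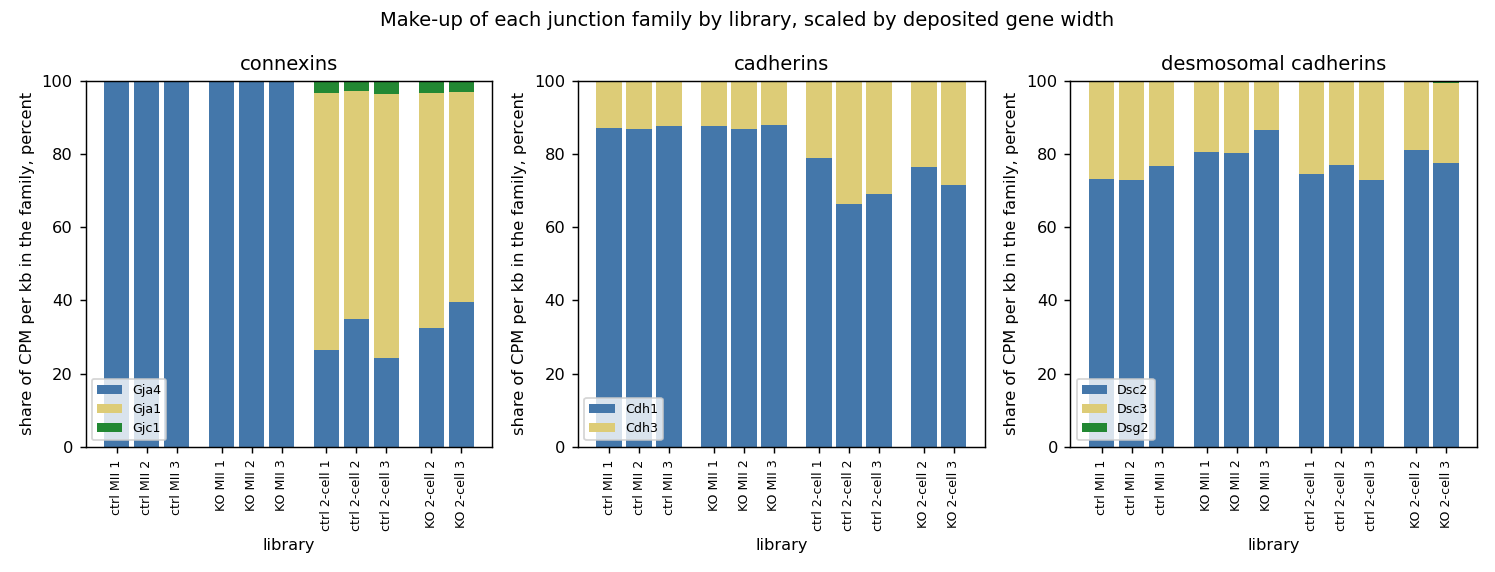
Share of each gene in the summed CPM per kb of its family (vertical axis, percent), 1 stacked bar per library, scaled by the deposited gene widths. Gja4 fills the oocyte bars of the connexins, Gja1 takes 57.6% to 72.1% of the embryo bars, and the Dsc3 part is smaller in knockout than in control libraries of each stage.

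Of the 8 members tested between control oocytes and control embryos, 2 rose and 6 fell, on a background in which 83.1% of all 15577 genes tested passed (43.1% higher and 40.0% lower). The libraries of all 8 separated by stage, as did those of 85.0% of genes (44.3% higher and 40.7% lower). A call at this step is therefore the rule for any gene, and the size and direction of each change carry the description. The median log2 change of the members was -1.02, beside 0.07 for all genes tested. Between the knockout groups 1 member rose and 6 fell, where 80.2% of 16592 genes passed (42.5% higher and 37.7% lower), with a median of -0.87 beside 0.09 for all genes. All 8 again separated, as did 86.9% of genes (46.4% higher and 40.5% lower).

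The wider junction lists moved in both directions at this step. Of 13 tested connexin and pannexin genes, 3 rose and 10 fell. Gja1 and Gjc1 were among those that rose. Panx1, a pannexin that forms channels in the plasma membrane, fell from 42.4 to 5.62 CPM (log2 -2.94, SE 0.13), and Gjb1, which encodes connexin 32, from 24.5 to 3.32 (log2 -2.89, SE 0.26). Of 14 classical cadherins, 3 rose and 8 fell. Cdh4 (R-cadherin) rose from 47.1 to 60.6 CPM and Cdh24 from 18.05 to 26.6, whereas Cdh2 (N-cadherin) fell from 47.5 to 15.4 and Cdh20 from 12.4 to 1.72.

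Of 10 tested desmosome genes, 2 rose and 5 fell. Dsp, the plakin that links desmosomes to keratin, rose from 3.33 to 6.59 CPM and the plakophilin gene Pkp3 from 0.160 to 1.55, while Pkp2 fell from 12.6 to 4.98 and Dsg1a from 7.42 to 4.02. Dsg1a has close copies, Dsg1b and Dsg1c, between which the counting could divide reads. Of 18 catenins and adherens junction partners, 7 rose and 8 fell. Pkp4 rose from 176 to 444 CPM and Afdn (afadin) from 283 to 353, while Rdx (radixin) fell from 3063 to 550 and Ctnnb1, which encodes beta-catenin, from 503 to 199. Of 31 tight junction genes, 12 rose and 18 fell. The polarity gene Pard3 rose from 384 to 461 CPM and Mpp5, also called Pals1, from 139 to 196, while Patj fell from 362 to 122 and Pard6b from 168 to 77.8. The edgeR adjusted p of the named genes lay under the threshold of 0.05 in each case.

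**Figure D3:**
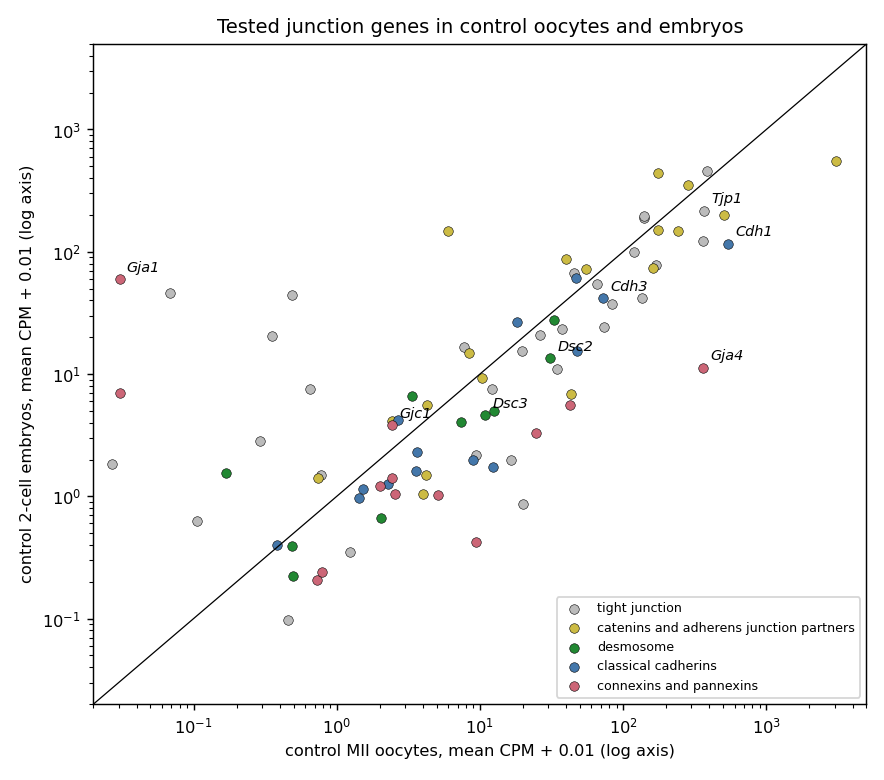
Mean CPM (plus 0.01, log axes) of each tested junction gene in control oocytes (horizontal) and control embryos (vertical), coloured by list, with the line of equal level. Gja1 stands far above the line, from 0.0205 to 59.4 CPM, Gja4 far below it, from 362 to 11.3, and the labelled points of Cdh1, Cdh3, Tjp1, Dsc2 and Dsc3 lie below it.

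Knockout oocytes were then compared with control oocytes, the same libraries that entered the comparisons of stages. Of the 7 members tested, Dsc3 was lower and none was higher, on a background of 0.583% of 14235 genes called, 0.450% higher and 0.133% lower. Gja1 and Dsg2 had too few reads to be tested. Dsc3 fell from 10.9 ± 1.11 to 6.42 ± 1.25 CPM (SD, n = 3 each), or 59.1% of control and -0.78 in log2 (SE 0.14, edgeR adjusted p = 0.027). All 3 knockout libraries lay below all 3 controls, as did those of 5.66% of the genes tested (10.1% separated with knockouts higher and 15.7% either way). No other tested member separated. The call was lost without control replicate 1 (adjusted p = 0.14) or 2 (0.16), without knockout replicate 1 (0.078) or 3 (0.083), and with all 11 libraries in 1 fit (0.13). It passed in 7 of 12 alternatives, with adjusted p from 7.8e-05 to 0.16 and a log2 change of -0.91 to -0.64 when a library was left out.

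The adjoining gene Dsc2 had a log2 value of -0.05 (SE 0.08, edgeR adjusted p = 0.90), and its genotypes overlapped. Gja4, the main connexin of the oocyte, was at 0.05 (SE 0.05, adjusted p = 0.82), Cdh1 at 0.01 (SE 0.04, 0.97), Cdh3 at -0.02 (SE 0.06, 0.96), Tjp1 at -0.08 (SE 0.04, 0.55) and Gjc1 at 0.31 (SE 0.19, 0.64). The median over the members was -0.02, beside 0.0002 for all genes. Across the wider lists, Dsc3 was the only call among 9 desmosome genes in edgeR and DESeq2. None of 11 connexin and pannexin genes, 15 cadherins, 18 catenins and partners or 28 tight junction genes passed in edgeR, with 3, 0, 2 and 5 at an unadjusted p under 0.05. DESeq2 called 0, 0, 0 and 1 of them. Granulosa and cumulus markers held no call among 9 tested in edgeR (2 at an unadjusted p under 0.05) and 1 in DESeq2, higher in knockouts. The summed list overlapped between genotypes, but Nr5a2, its largest part, had nearly equal means (64.7 for controls, 64.6 for knockouts). Ptgs2 averaged 2.28 (SD 1.00) without and 5.45 (SD 0.80) with the knockout, and Cyp11a1 6.71 (SD 0.73) and 9.23 (SD 0.20). Cyp19a1 went the other way, from 19.0 to 18.2. Overlap of the sum therefore does not show that each marker was equal.

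**Figure D4:**
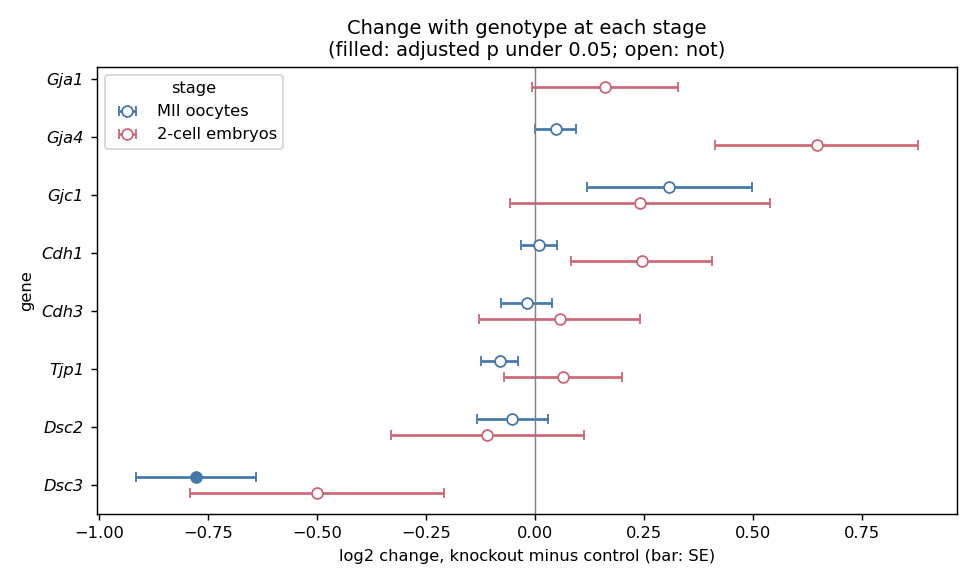
Log2 change, knockout minus control (horizontal axis), with its SE for each tested member in oocytes and in 2-cell embryos. Dsc3 in oocytes (-0.78) has the filled point of a call, its embryo point (-0.50) and that of Gja4 in embryos (0.65) are open, and the oocyte points of Gja4, Cdh1, Cdh3, Tjp1 and Dsc2 lie between -0.08 and 0.05.

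In 2-cell embryos without maternal Daxx, edgeR called 0 of 8 tested members, on a background of 0.0260% of 15414 genes. DESeq2 also called 0, and 1 member had an unadjusted p under 0.05. That member was Gja4, whose 2 knockout libraries (17.1 and 19.0 CPM) lay above the 3 controls (8.57 to 14.2), as did those of 11.4% of genes tested (17.8% either way). Its log2 value was 0.65 (SE 0.23, edgeR unadjusted p = 0.013, adjusted p = 1.00), and the adjusted p was between 0.199 and 1.00 over the 11 alternatives. The 12 oocyte markers summed to between 1634 and 1981 CPM in control embryos and between 2143 and 2163 in knockout embryos. Their median log2 value was 0.18, below that of Gja4, beside 0.002 for all genes, and the mean of Astl was lower in knockouts (27.7 and 26.9 CPM). In edgeR 0 of 12 passed (2 at an unadjusted p under 0.05), as in DESeq2. The part of the oocyte markers in the Gja4 value was not tested.

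Dsc3 was at 72.4% of control in maternal knockout embryos, with both knockout libraries below all 3 controls, as in 6.38% of genes tested. Its log2 value of -0.50 (SE 0.29, edgeR adjusted p = 1.00) did not pass, on 70 to 100 reads per library. Gja1 was at 0.16 (SE 0.17), Gjc1 at 0.24 (SE 0.30), Cdh1 at 0.24 (SE 0.16), Cdh3 at 0.06 (SE 0.18), Tjp1 at 0.06 (SE 0.14) and Dsc2 at -0.11 (SE 0.22), each at an edgeR adjusted p of 1.00 and with overlapping genotypes. For each of the 7 members tested at both stages the SE was larger in embryos than in oocytes. No gene of the 5 junction lists passed in edgeR or DESeq2. In edgeR an unadjusted p under 0.05 was seen for 1 connexin (Gja4), 1 cadherin (Cdh20, from 1.72 to 4.28 CPM), and 0 genes of the other lists.

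Whether knockout changed a member differently in oocytes and embryos was tested with an interaction term over the 11 libraries. None of 8 members passed in edgeR or DESeq2, where 0.0118% of 17018 genes passed in edgeR, and 1 had an unadjusted p under 0.05. That was Gja4, with a difference of 0.59 (SE 0.19, edgeR unadjusted p = 0.0072, adjusted p = 0.91). For Dsc3 the difference was 0.27 (SE 0.27, adjusted p = 0.97), so that its oocyte call and its embryo value were not shown to differ. For Gja1 the difference had an SE of 1.09, since its oocyte side rests on 5 reads.

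Seen over the 4 groups, most neighbours in order of mean level overlapped within a stage and separated between stages. For Gja4, Cdh1, Cdh3, Dsc2, Dsc3 and Tjp1 both oocyte groups lay above both embryo groups without overlap, and for Gja1 both embryo groups lay above both oocyte groups. Within a stage, neighbours separated for Gja4 in embryos and for Dsc3 in oocytes and embryos. Over all genes tested, genotypes separated in either direction for 15.7% in oocytes and 17.8% in embryos. Within a genotype, stages separated for 85.0% in controls (44.3% higher and 40.7% lower in embryos). In knockouts they separated for 86.9% (46.4% higher and 40.5% lower). How many genes separate by stage over both genotypes together was not counted. For Gjc1 every pair of neighbours in the order overlapped.

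The genes whose log2(CPM + 1) ran most closely with each member over the 11 libraries were sought among 9447 genes, as a description, since the libraries fall into 2 stages that set most of each correlation. For Gja1 they were Sowahc, Rtn2 and Fam43b (Pearson's r 1.00 each), and 1518 genes had an r above 0.99. For Gja4 they were Aco1, Kdm2b and Nup88 (r 1.00, 0.999 and 0.999), for Cdh1 Eif2b3, Slc20a2 and Agpat2 (r 0.999, 0.998 and 0.998), for Tjp1 Wdr41, Slc6a4 and Hectd2 (r 0.996, 0.996 and 0.995), for Cdh3 Emilin2, Nedd8 and Adcy5 (r 0.991, 0.987 and 0.987), for Dsc2 Dnajc3, Srbd1 and Dync1i2 (r 0.997, 0.995 and 0.994) and for Gjc1 Zbtb40, Rcan1 and Tmem39a (r 0.955, 0.930 and 0.924).

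Dsc3 ran most closely with Zfp940 (r 0.973), the transcription factor gene Foxp2 (0.964) and Ccbe1 (0.959), and no gene exceeded 0.99. Ccbe1, a secreted protein of lymphatic development, had means of 16.9 and 8.44 CPM in control and knockout oocytes and of 5.30 and 4.11 in control and knockout embryos. Foxp2 had 19.7, 8.53, 7.03 and 3.98 CPM in the same order, and Zfp940 31.3, 23.5, 19.9 and 17.5. The means of each descended over the 4 groups in the order of Dsc3. Because they were picked for running with Dsc3 over these same libraries, the choice favours that order. For Dsg2 the closest r was 0.820 (Ubxn2b), which rests on 0 to 4 reads per library.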

How the data were processed

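Per the labels' protocols, libraries were made from RNA of the pools with a SoLo RNA-Seq kit. The authors deposited whole-number read counts per Entrez gene and a width per gene, and the deposited counts were used as they stand. Per the submitters' processing notes, STAR 2.5.0a, SAMtools and GRCm38 (mm10) were used. The counting program, use of strand and basis of the width were not given in the sources used here. Symbols and coordinates came from RefSeq (GRCm38.p6), in which 24387 of 24421 identifiers matched, and gene strands from GENCODE M21. In the RefSeq table only Dsg2 among the members overlaps other genes, neither of which has a row in the count table.

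CPM is the count divided by the library total and multiplied by 1000000. Tests used edgeR 4.0.16 in R 4.3.3 (filterByExpr with minimum count 10 and total 15, TMM, robust quasi-likelihood F test), with Benjamini-Hochberg adjustment over all genes tested and a threshold of 0.05. The SE is the log2 change divided by the root of F. Each comparison used its own groups, and the difference of effects all 11 libraries. DESeq2 1.42.0, RLE factors, other filters, a replicate block, a fit of all 11 libraries and each library left out were alternatives. The tests were run on counts simulated with the spread that edgeR had estimated. Such a check cannot show how well the edgeR model describes these libraries. Chi-square per degree of freedom between replicates was 4.86 to 34.3, so none was treated as a duplicate. Nothing states that pools shared no female, so p-values measure the spread between pools. Intervals and floors cover counting error only, since libraries were amplified by PCR.

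The members and lists were chosen with earlier results of these data known. All members are described, and of the other list genes those called between genotypes and, between control stages, up to 2 per list and direction with the highest mean, except 1 gene that is not reported here. Cdh20 and the markers were named after their values were seen. Lists beyond those described, for sperm, epithelial and blood cells, held 1, 1 and 0 calls between oocyte genotypes (all higher) and 0 between embryo genotypes in edgeR. Knockout embryo replicate 1 was not analysed here.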

Additional observations from a re-analysis of the deposited data

How the results depend on the processing

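The direction and call of Gja1, Gja4, Cdh1, Cdh3, Dsc2, Dsc3 and Tjp1 between stages were kept in every alternative run, in both genotypes. Members counted as higher between control stages numbered 1 to 2 when a library was left out, the change being Gjc1. Between knockout stages they numbered 2 with RLE factors, the stricter filter, DESeq2 or the replicate block, against 1, and 1 to 2 when a library was left out, the change again being Gjc1. Members lower in knockout oocytes numbered 0 with all 11 libraries in 1 fit, against 1, and 0 to 1 when a library was left out. Over all genes, knockout oocytes had 64 higher and 19 lower calls, but 130 and 53 with no low-count filter, 154 and 73 in DESeq2, 18 and 4 with all libraries in 1 fit, and 16 to 117 and 4 to 40 when a library was left out. Embryos had 4 and 0 in edgeR (with 491 genes under 0.05 before adjustment), but 30 and 2 with no filter, 9 and 1 in DESeq2, 12 and 1 with all libraries in 1 fit, and 0 to 4 and 0 to 4 when a library was left out. Without a knockout embryo, the lone one left is assumed to vary like the controls. The difference of effects had 2 and 0 calls in edgeR (with 920 genes under 0.05 before adjustment), but 4 and 3 in DESeq2, and 1 to 3 and 0 to 1 when a library was left out.

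Replicate numbers were not shown to pair the libraries. Same-numbered oocyte libraries had correlations of deviations of -0.26, 0.34 and 0.14, and embryo libraries of -0.21 and -0.04. Control oocyte 1 ran best with knockout oocyte 2 (0.38). Deviations from the means of such small groups are tied to each other, so these values cannot decide whether same-numbered pools belong together. With the replicate block, 32 genes were lower in knockout oocytes, 1 higher and 1 lower in knockout embryos, and 1 lower in the difference. The log2 value of Cdh3, which was never called between genotypes, turned to -0.096 in embryos and -0.093 in the difference under the block.

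Uncalled members with log2 values near 0 changed sign when libraries were left out. In oocytes Cdh1 ranged from -0.018 to 0.035, Cdh3 from -0.062 to 0.034 and Dsc2 from -0.13 to 0.022. In embryos Cdh3 ranged from -0.095 to 0.15 and Tjp1 from -0.026 to 0.14. In the difference Gja1 ranged from -2.73 to 0.53, Gjc1 from -0.18 to 0.15, Dsc2 from -0.18 to 0.040 and Cdh3 from -0.094 to 0.17.

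Shares of reads, with no width, were also taken. Among Gja1, Gja4 and Gjc1, Gja4 held 99.3% and 99.2% in control and knockout oocytes and 15.2% and 20.1% in embryos. Gja1 held 79.7% and 74.8% in embryos and 0.00721% in knockout oocytes. Of Cdh1 and Cdh3 alone, Cdh1 held 88.2% and 88.4% in oocytes, with the other cadherin genes left out. With GENCODE lengths, an alternative added after the data were seen, the Gja4 share in embryos was 50.3% and 58.8%, that of Gja1 43.9% and 36.2%, and that of Cdh1 in control oocytes 87.8%. Depth limits Dsg2 and the oocyte level of Gja1, for which no more than a handful of reads was seen.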
